A study of Homo sapiens with 6 samples.

Results

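Integrins and the proteins that join them to the actin skeleton were examined in MDA-MB-231, an established line of human breast cancer cells with mesenchymal traits, in 3 libraries labelled Con and 3 labelled Ang. The group held 40 genes, named by symbol, and each of the 40 was found among the 28979 gene IDs of the files. Of these, 16 encode integrin subunits and 24 encode other focal adhesion proteins, and 37 had enough counts for a test. For 0 of these did Ang differ from Con at an adjusted p under 0.05 by edgeR's quasi-likelihood test. By counts per kilobase of exon, ITGA3 and ITGA6 led the α subunits and ITGB1 the β subunits in every library. The strand setting of these counts is not given.

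The series design describes MDA-MB-231 cells incubated with exosomes, small vesicles shed by cells, that came from normal or from hypertrophic cardiomyocytes, and a search for genes targeted by microRNAs in them. The title names AC16, a human cardiomyocyte line. The labels read here do not spell out Con and Ang, nor the amount of vesicles or the time of exposure, and both names are therefore kept. Whether the libraries of a group came from separate cultures is not said either, and the p-values therefore reflect library-to-library spread, possibly technical.

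Integrins are receptors made of 1 α and 1 β subunit that hold a cell to the matrix around it. The α subunit largely decides the ligand: collagen, laminin, or proteins with an RGD peptide such as fibronectin and vitronectin. Talins and kindlins bind the tail of the β subunit and switch the receptor on. The cluster of proteins that then assembles, the focal adhesion, holds kinases (FAK, encoded by PTK2, and SRC), scaffolds (paxillin, p130Cas) and linkers to actin (vinculin, zyxin, tensins). Adhesion through ITGB1 and the laminin-binding subunits is much studied in invasion of breast cancer cells, for which MDA-MB-231 is a common model.

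Library totals ran from 3369212 to 5437190 counts. The 6 mesenchymal markers listed were all above the limit of 3 counts in every library, with summed levels of 1970 to 2530 CPM (counts scaled to the TMM-adjusted library size) in Con and 2390 to 2530 CPM in Ang. Of the 7 epithelial markers 5 (KRT8, KRT18, KRT19, CLDN4 and EPCAM) were above that limit in every library, and the list summed to 1220 to 1360 CPM in Con and 1280 to 1390 CPM in Ang, most of it KRT8. CDH1 had 24 counts and ESR1 7 counts over all 6 libraries. Exons of the other strand cover 24.4% of the exon bases of the mesenchymal marker VIM, 16.3% of KRT18 and 7.63% of KRT8. Of 10 cardiomyocyte markers 7 were matched, and NPPA led them with 224 counts, though 25.5% of its exon bases lie under exons of the other strand. The other 6 had 1 to 19 counts each. Summed, the 7 had 7.39 to 19.2 CPM in Con and 7.63 to 14.2 CPM in Ang. Fibroblast markers, 4 of 5 matched and 2 of them above the limit in every library, summed to 11.8 to 15.4 CPM in Con and 7.92 to 10.7 CPM in Ang, and their part in the results was not tested.

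Con replicate 2 stood apart from the other libraries. The chi-square per gene was 14 and 13.8 against Con replicates 1 and 3, which differed from each other by 7.20, while the 3 pairs of Ang libraries had 3.65 to 3.97. The remaining Con pair was thus wider apart than the Ang pairs. Con replicate 2 also had the lowest strand ratio, which is the counts per base of a non-coding gene over those of the coding gene whose exons cover it on the other strand. The median over 250 such pairs was 23.2 in Con replicate 2, against 39.3 and 41.1 in Con replicates 1 and 3 and 32.9 to 35.4 in the Ang libraries.

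The strand bears directly on the members. Exons of another gene on the other strand cover part of 22 of the 40 members, among them 8 of the 16 integrin subunits. In 18 of the 29 pairs so formed, the other gene held more counts per base than the member. Of these 18 pairs, 15 had at least 300 counts in both genes. Over the 250 pairs of the strand ratio, with the libraries joined, the median was 32.5 and 88.8% of pairs were above 1. No source used here gives the strand setting of the counter. The counts of all 40 members, also those with no such overlap, are therefore uncertain as measures of their own RNA. PXN-AS1, an antisense gene that shares 12.3% of the exon bases of PXN, had 65603 counts in all where PXN had 2609. ENSG00000265784, an antisense gene of 456 exon bases that lies wholly under LASP1, had 27949 counts where LASP1, with 7061 exon bases, had 4482. Per base that was 96.6 times the value of LASP1, and 78.8 times that of PXN for PXN-AS1.

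ILK was the member most covered, with 78.5% of its exon bases under the other strand. TAF10, a subunit gene of a general transcription factor, shares 68.1% of the exon bases of ILK and had 22135 counts against 2702. For integrins the shared stretches are short. ITGA2-AS1 shares 0.636% of the exon bases of ITGA1 and had 47.5 times its counts per base. ENSG00000227227 shares 2.47% of ITGAV and had 16.4 times its counts per base, and GPR84-AS1 shares 0.633% of ITGA5 and had 12.2 times. By contrast ITGB1-DT, a divergent transcript of ITGB1, had 38 counts where ITGB1 had 12288. Among the tested integrins ITGA2, ITGA3, ITGA4, ITGB3, ITGB4 and ITGB5 have no exon base under the other strand. As levels per kilobase of exon, the other-strand genes of ITGA6 stood at 71.1 to 90.4 CPM and ITGA6 itself at 26.7 CPM.

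For 4 members with a shared stretch inside coding sequence, the bases are printed, since a read on them can belong to either gene. They are given 5′ to 3′ on the strand of the member, from GENCODE 29 transcripts on GRCh38, with the bases shared with the other gene in capitals. The exon of ITGAV is at chr2:186641386-186641588 on the plus strand, and all 203 bases are shared with ENSG00000227227. The first coding exon of ITGA6 is at chr2:172427789-172427970 on the plus strand, with 159 bases shared with ENSG00000226963. The stretch of ITGA5 is at chr12:54409510-54409597 on the minus strand, with 48 bases shared with GPR84-AS1. That of ZYX is at chr7:143390578-143390679 on the plus strand, with 68 bases shared with EPHA1, an ephrin receptor gene.
ITGAV: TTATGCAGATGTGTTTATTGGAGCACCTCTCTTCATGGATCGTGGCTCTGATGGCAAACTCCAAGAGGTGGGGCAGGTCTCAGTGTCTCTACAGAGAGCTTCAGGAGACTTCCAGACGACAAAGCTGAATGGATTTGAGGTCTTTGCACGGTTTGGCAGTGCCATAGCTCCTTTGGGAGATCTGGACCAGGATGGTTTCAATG
ITGA6: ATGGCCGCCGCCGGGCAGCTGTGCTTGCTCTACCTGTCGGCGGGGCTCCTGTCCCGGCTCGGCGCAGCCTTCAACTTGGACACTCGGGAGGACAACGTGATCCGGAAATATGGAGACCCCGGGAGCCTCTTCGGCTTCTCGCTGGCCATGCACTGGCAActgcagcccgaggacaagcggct
ITGA5: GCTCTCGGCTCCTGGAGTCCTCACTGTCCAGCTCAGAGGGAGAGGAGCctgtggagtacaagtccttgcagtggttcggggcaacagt
ZYX: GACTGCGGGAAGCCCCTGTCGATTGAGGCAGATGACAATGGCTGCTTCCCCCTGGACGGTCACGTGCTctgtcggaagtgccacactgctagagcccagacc

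**Figure D1:**
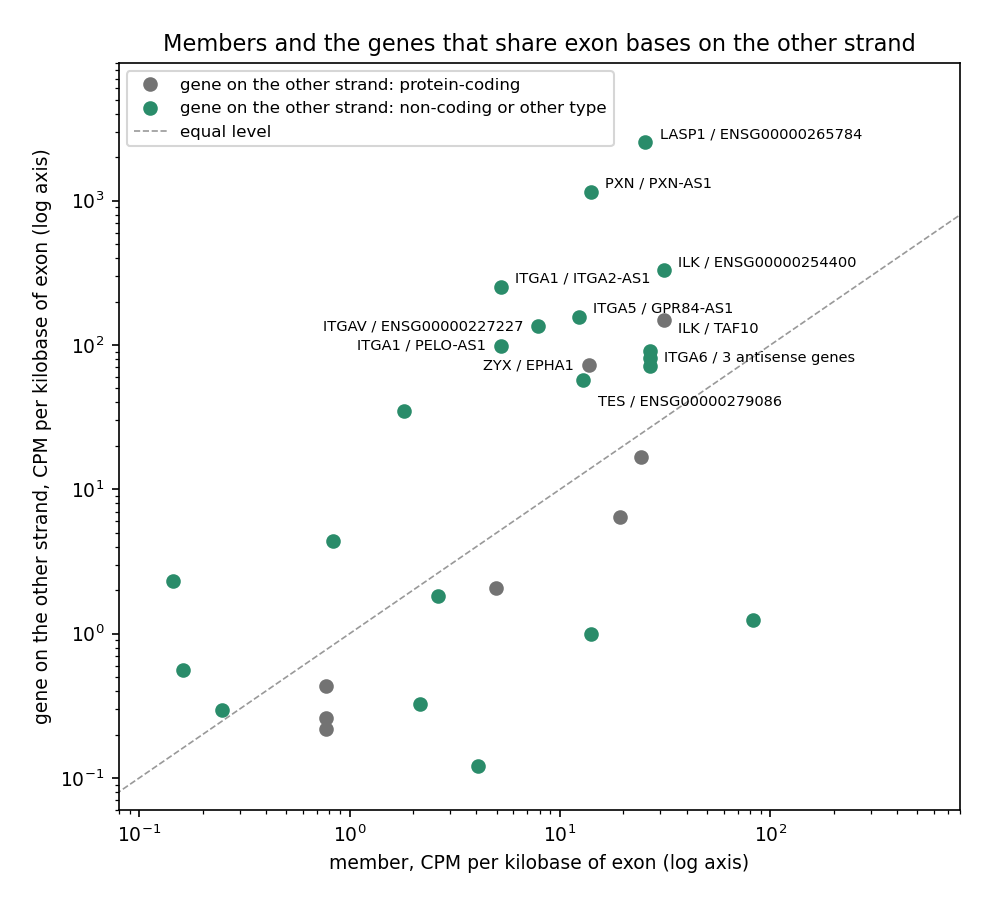
Level of each member (x axis) and of each gene that shares exon bases with it on the other strand (y axis), as mean CPM per kilobase of exon over 6 libraries, on log axes. Points above the dashed line of equal level, 18 of 29, are genes with more counts per base than the member, led by the antisense genes of LASP1 and PXN. Of these 18 pairs, 15 have at least 300 counts in both genes.

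Positions are those of GENCODE 29 on GRCh38. ITGB1 (ENSG00000150093) lies on chromosome 10 from 32900319 to 33005792, and ITGA5 (ENSG00000161638) lies on chromosome 12 from 54395261 to 54419460. Chromosome 17 holds ITGA3 (ENSG00000005884) from 50055968 to 50090481, ITGB3 (ENSG00000259207) from 47253846 to 47311816 and ITGB4 (ENSG00000132470) from 75721328 to 75757818. On chromosome 2 are ITGA6 (ENSG00000091409) from 172427354 to 172506282 and ITGAV (ENSG00000138448) from 186590065 to 186680901. The collagen receptor genes lie close together on chromosome 5, with ITGA1 (ENSG00000213949) from 52787896 to 52959210 and ITGA2 (ENSG00000164171) from 52989326 to 53094779. Among the other members, NEDD9 (ENSG00000111859) lies on chromosome 6 from 11183298 to 11382348, BCAR1 (ENSG00000050820) lies on chromosome 16 from 75228187 to 75268053, FERMT2 (ENSG00000073712) lies on chromosome 14 from 52857268 to 52952435 and CRKL (ENSG00000099942) lies on chromosome 22 from 20917426 to 20953749.

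Levels of different genes are compared per length, as CPM per kilobase of joined exons, with the uncertainty about the strand given above. ITGB1, the β subunit shared by most integrins, had the highest level of all subunits, at a mean of 82.9 with a range over the 6 libraries of 74.2 to 92.2. It made up 81.7% of the summed level of the 8 human β subunits, 78.1% to 84.8% across libraries. ITGB4, the partner of ITGA6 in hemidesmosomes, followed at 7.86 (6.75 to 9.29), and ITGB5, a vitronectin receptor subunit that pairs with ITGAV, at 7.19 (5.21 to 8.84). Those neighbours overlapped, with ITGB4 the higher in 5 of 6 libraries. Beyond the members, ITGB7, a subunit of lymphocyte integrins, had 1.88, with 42.1% of its exon bases under the other strand.

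ITGB3, the other main partner of ITGAV, had a low level of 1.01 (0.267 to 1.83). Over its exon bases 51.6% lie under exons of another gene on the same strand, so its counts are uncertain. ITGB8 had 16, 19 and 2 counts across Con, against 7, 4 and 15 across Ang. ITGB6, a subunit of epithelial cells, had 1 count over all 6 libraries, in Ang replicate 2. A count of 0 allows up to 3 counts, or 0.552 to 0.890 CPM in these libraries, so ITGB6 lay under what this depth can show. ITGB2, the leukocyte β subunit and not a member, had 0.340. Its counts were 20, 31 and 6 across Con, against 4, 3 and 2 across Ang, at or near the limit of 3 in Ang, and it was not tested.

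Among α subunits ITGA3, a laminin receptor subunit, came first at 47.5 (37.7 to 57.9) and made up 40.7% of the summed level of the 18 human α subunits. ITGA6, which also binds laminin, was next at 26.7 (25.3 to 30.1), and the ranges of these neighbours did not overlap. ITGA5, the fibronectin receptor subunit, had 12.3 (9.30 to 16.1), below ITGA6 in every library. ITGAV, which binds RGD proteins, had 7.84 (6.24 to 9.78). ITGA2 and ITGA1, the collagen receptor subunits, had 7.35 (6.08 to 8.36) and 5.22 (4.57 to 6.37). The order from ITGA5 down was less sharp. ITGA5 was above ITGAV and ITGA2 above ITGA1 in 6 of 6 libraries with ranges that overlapped, and ITGAV was above ITGA2 in 4 of 6.

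Apart from ITGAE, which was close to ITGA1, the remaining α subunits were low. ITGAE, a lymphocyte subunit outside the members, had 5.07, which was below ITGA1 in 3 of 6 libraries. Exons of the other strand cover 7.59% of its exon bases. ITGA4, a receptor subunit for VCAM-1 and fibronectin, had 1.46 (0.855 to 2.47), and ITGA7, a laminin receptor subunit of muscle, had 0.771 (0.589 to 1.19). ITGA10 had 3, 16 and 3 counts in the Con libraries and 4, 0 and 0 in the Ang libraries. ITGA11 had 1, 5 and 4 counts in Con and 1, 8 and 1 in Ang. With ITGB6, these collagen receptor subunits were the only members not tested, as their counts lay at or near the limit of 3 in most libraries. ITGAL, ITGAM and ITGAX, subunits of leukocytes outside the members, had 2, 3 and 3 counts over all libraries.

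**Figure D2:**
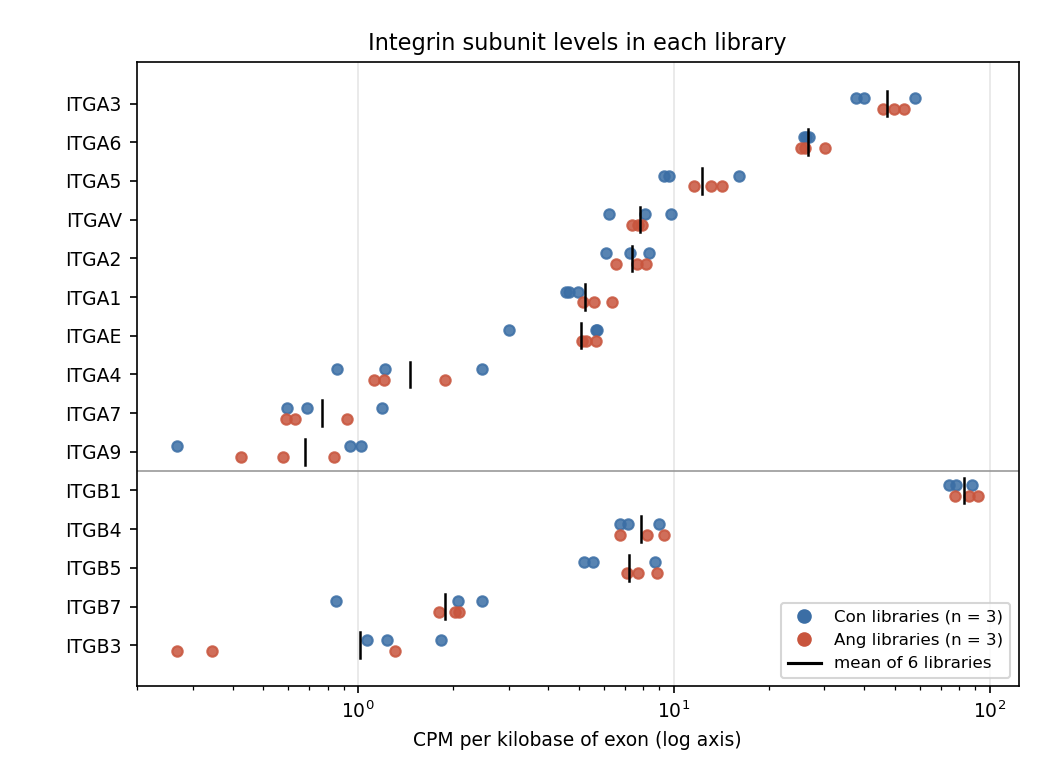
CPM per kilobase of exon (log axis) of the integrin subunits with over 3 counts in every library, α subunits above the line and β subunits below. Each point is a library and each bar the mean of 6. ITGB1, ITGA3 and ITGA6 lie highest in both groups, and 2 Ang libraries lie apart for ITGB3.

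Setting known partners side by side, ITGA6 was above ITGB4 in 6 of 6 libraries, by 2.81 to 4.45 times. ITGAV and ITGB5 were near each other, with ratios of ITGAV to ITGB5 from 0.896 to 1.55. Over ITGB3, ITGAV was higher by 4.42 to 28.8 times. The summed level of the 9 member α subunits other than ITGAV was 0.999 to 1.48 times that of ITGB1. The ratio of ITGB1 to ITGA3 was 2.34, 1.35 and 1.86 over the Con libraries in order of number, against 2.01, 1.73 and 1.46 over the Ang libraries. The lowest value was in Con replicate 2. These ratios describe counts, not receptors on the surface.

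Between groups, Ang was tested against Con over 14547 genes, of which 0 (0%) passed the threshold. The same was true of the 37 members, where 0 passed, with a smallest adjusted p of 0.999. At an unadjusted p under 0.05 there was 1 member, NEDD9, where 494 of all tested genes (3.40%) met that rule. DESeq2 and limma-voom called 0 genes too, with 411 and 447 genes, and 1 and 2 members, at an unadjusted p under 0.05. In all, 21 of 37 members had a log2 fold change above 0, beside 49.2% of all tested genes, and the median was 0.033 beside -0.006. That median was -0.021 without Con replicate 3. In bulk RNA, fewer cells with a transcript and less of it per cell cannot be told apart.

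Most intervals were narrow. In 30 of the 37 members the fold change had a 95% interval inside 2-fold either way, beside 64.2% of all tested genes. Among integrins this held for 10 of 13. The exceptions were ITGA7, ITGB3 and ITGB8 among integrins, and FERMT1, FERMT3, NEDD9 and TNS1 among the others, which had 63 to 503 counts each over all libraries.

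Values are given in order of replicate number, 1 to 3, in each group. ITGB1 stood at 531, 471 and 446 CPM across Con, against 554, 519 and 469 across Ang. The groups overlapped, and the fold change of 0.842 to 1.35 (95% interval) was centred on a log2 value of 0.09 ± 0.17 (SE). ITGA3 stood at 370, 568 and 391 CPM across Con, against 450, 489 and 523 across Ang. Its highest and lowest libraries were both Con, and the log2 fold change was 0.14 ± 0.17. ITGA6 stood at 169, 175 and 171 CPM across Con, against 197, 170 and 165 across Ang, an interval of 0.815 to 1.31-fold. So the most abundant laminin receptor subunits overlapped between groups.

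The collagen receptor subunits came next. ITGA1 stood at 92.5, 86.2 and 84.9 CPM across Con, against 104, 118 and 95.6 across Ang. All 3 Ang libraries were above all 3 Con libraries, with a log2 fold change of 0.27 ± 0.18 and an adjusted p of 0.999. ITGA2 stood at 66.1, 57.5 and 48.1 CPM across Con, against 51.9, 60.3 and 64.7 across Ang, with the Ang libraries inside the range of Con. For ITGA1 the antisense gene ITGA2-AS1 had a log2 fold change of 0.17 and PELO-AS1 of 0.11, and their part in the values of ITGA1 was not tested. Overlap with other genes' exons on the same strand covers 5.63% of the exon bases of ITGA1, more than the 1.22% on the other strand. The part of that overlap was not tested either.

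ITGA5 stood at 73.3, 122 and 70.5 CPM across Con, against 99.2, 87.7 and 107 across Ang. Con replicate 2 was the highest library, and the Ang libraries lay between it and the other Con libraries. ITGAV stood at 66.3, 80.3 and 51.3 CPM across Con, against 63.1, 65.1 and 60.4 across Ang, again inside the range of Con. ITGB5 stood at 33.6, 56.3 and 35.9 CPM across Con, against 45.8, 57.0 and 49.7 across Ang, a log2 fold change of 0.27 ± 0.22. ITGB4 stood at 48.4, 60.7 and 45.6 CPM across Con, against 45.8, 62.8 and 55.7 across Ang. These groups overlapped as well.

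The low subunits varied more. ITGB3 had 38, 32 and 15 counts in Con and 4, 6 and 20 counts in Ang, or 8.03, 5.41 and 4.72 CPM and 1.17, 1.51 and 5.78 CPM. Ang replicates 1 and 2 were below every Con library, while Ang replicate 3 was among them. The log2 fold change of -1.11 ± 0.61 had an interval of 0.202 to 1.06-fold, and without Ang replicate 3 it was -2.15 ± 0.78, with an adjusted p of 1.0 by edgeR. ITGA4 stood at 6.76, 9.64 and 19.5 CPM across Con, against 15.0, 8.82 and 9.53 across Ang, with Con replicate 3 the highest. ITGA7 stood at 3.80, 7.61 and 4.40 CPM across Con, against 5.87, 4.03 and 3.76 across Ang, with Con replicate 2 the highest.

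The integrin activators were led by TLN1, which encodes talin-1. It stood at 221, 316 and 187 CPM across Con, against 232, 283 and 240 across Ang, with Con libraries at both ends. Per kilobase TLN1 stood at 24.4 and TLN2, the other talin gene, at 0.830. Kindlins bind beside talin, and FERMT2 (kindlin-2) stood at 26.8, 30.8 and 35.9 CPM across Con, against 39.0, 37.8 and 38.4 across Ang. Here the groups did not overlap, with a log2 fold change of 0.31 ± 0.24. FERMT3, the kindlin of blood cells, had 4.96 CPM per kilobase, close to the 4.09 of FERMT2, and was above it in 5 of 6 libraries. FERMT1, the kindlin of epithelia, had 1.04. Of the 5 activators 4 had a positive log2 fold change, beside 49.2% of all tested genes.

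Among kinases and scaffolds, NEDD9, a docking protein of the p130Cas family, stood at 22.4, 32.6 and 15.1 CPM across Con, against 15.6, 13.6 and 14.2 across Ang. The Ang libraries were close together and Con replicate 3 fell within them. The log2 fold change was -0.71 ± 0.30, with an adjusted p of 0.999, and without Con replicate 2 it was -0.39 ± 0.32. BCAR1, which encodes p130Cas itself, stood at 17.1, 16.4 and 17.6 CPM across Con, against 22.9, 19.9 and 25.4 across Ang. All Ang values were above all Con values, at 0.42 ± 0.29, while NEDD9 was on the other side of 0. Overlap with other genes' exons on the same strand covers 8.59% of the exon bases of BCAR1, and its part in these values was not tested. The difference between the paralogs BCAR1 and NEDD9 was not tested. CRKL, an adaptor that binds them, stood at 35.7, 42.8 and 35.9 CPM across Con, against 27.3, 35.0 and 34.7 across Ang, with every Ang library lower (-0.24 ± 0.24).

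Non-overlapping groups were thus seen for ITGA1, FERMT2 and BCAR1 with Ang higher, 3 of 37 members beside 3.62% of all tested genes, and for CRKL with Ang lower, 1 of 37 beside 4.54%. Either direction together gave 4 of 37 beside 8.16%. PXN, the paxillin gene, was at 84.7, 117 and 79.6 CPM across Con, against 105, 130 and 112 across Ang, a log2 fold change of 0.30 ± 0.18. Only Con replicate 2 reached into the Ang values. PXN-AS1 on the other strand had 0.13. PTK2, the gene of focal adhesion kinase, had a level of 7.59 CPM per kilobase and a log2 fold change of -0.11 ± 0.18, SRC 3.43 and 0.44 ± 0.28, and CRK, the paralog of CRKL, 9.44 and -0.19 ± 0.23.

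The complex of ILK, PINCH (LIMS1) and parvin (PARVA) joins the β tail to actin. ILK stood at 96.9, 123 and 109 CPM across Con, against 94.2, 109 and 119 across Ang, which overlapped, with a log2 fold change of -0.03 ± 0.18. Its level of 31.2 per kilobase was the highest of the non-integrin members, with most of its exon bases shared as described. LIMS1 (3.75 per kilobase) and PARVA (2.67) had log2 fold changes of 0.01 ± 0.26 and -0.08 ± 0.24.

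Of the actin linkers LASP1, a LIM and SH3 protein gene, was at 153, 207 and 155 CPM across Con, against 170, 211 and 180 across Ang. VCL, which encodes vinculin, stood at 198, 211 and 167 CPM across Con, against 194, 200 and 196 across Ang, within the range of Con and with an interval of 0.808 to 1.30-fold. TES, the testin gene, was at 60.6, 65.3 and 44.0 CPM across Con, against 55.5, 52.4 and 54.6 across Ang. Both groups again overlapped for these genes. VASP, which promotes actin filament growth, stood at 37.4, 57.1 and 34.3 CPM across Con, against 42.8, 34.3 and 39.9 across Ang. ZYX, the zyxin gene, was at 25.3, 60.2 and 40.6 CPM across Con, against 60.7, 46.4 and 52.0 across Ang, and EPHA1 on the other strand had 72.5 CPM per kilobase beside 13.7 for ZYX. TNS1, TNS3, LPP and FBLIM1, the other linkers, had levels of 0.247, 3.47, 2.63 and 2.79 per kilobase and log2 fold changes from -0.13 to 0.11.

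**Figure D3:**
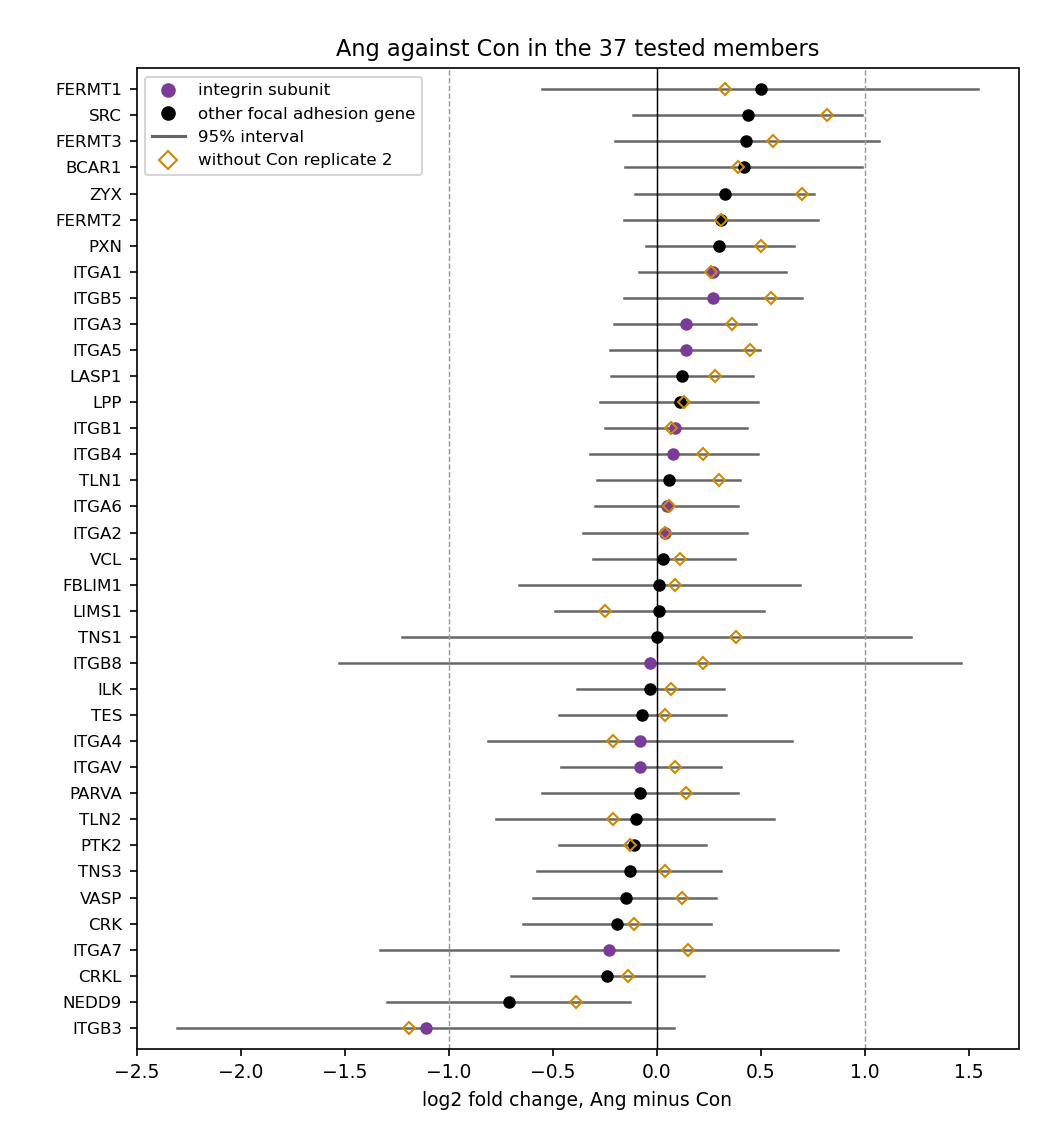
Log2 fold change, Ang minus Con, of the 37 tested members (x axis), with 95% intervals; open diamonds give the value without Con replicate 2 and dashed lines mark 2-fold. Of the 37 intervals 30 lie within 2-fold, and NEDD9 has the only interval that leaves out 0, before adjustment.

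Con replicate 2 was the highest of the 6 libraries for 14 of the 37 members, beside 19.9% of all tested genes. The median deviation of the members from their own mean over 6 libraries, on the log2(CPM + 1) scale, was -0.12, 0.22 and -0.16 across Con, against 0.01, 0.03 and 0.02 across Ang. Over all tested genes it ran from 0.01 to 0.04. The members thus lay highest in the library with the lowest strand ratio and lowest in the library with the highest one. The ratio is divided by counts of coding genes, and the members are coding genes, so the ratio and these levels are not independent. In the 16 tested members with no exon base under the other strand, the Con medians were -0.09, 0.26 and -0.15. The Ang medians were -0.01, 0.03 and 0.02, so the pattern among libraries was there too. A member without such overlap can still depend on how reads are assigned by strand, so these medians cannot separate the members from the strand ratio. The part of the strand ratio in these values was not tested.

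Without Con replicate 2, the members still gave 0 calls, while 40 of all tested genes (0.269%) passed the threshold. The smallest adjusted p of a member was then 0.130, for ITGA3, with a log2 fold change of 0.36 ± 0.11. Positive values numbered 29 of 37 beside 49.6% of all genes, with a median of 0.125. At an unadjusted p under 0.05 there were 8 members, all higher in Ang, beside 11.0% of all genes. They were ITGA3, ITGA5, ITGB5, SRC, PXN, TLN1, ZYX and LASP1. In that fit the log2 fold change was 0.45 ± 0.16 for ITGA5 and 0.55 ± 0.22 for ITGB5. It was 0.82 ± 0.30 for SRC, 0.50 ± 0.15 for PXN, 0.30 ± 0.12 for TLN1, 0.70 ± 0.22 for ZYX and 0.28 ± 0.13 for LASP1. Con was then left with the libraries of the highest strand ratios, 39.3 and 41.1, against 32.9 to 35.4 in Ang, and that gap and the group cannot be told apart.

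**Figure D4:**
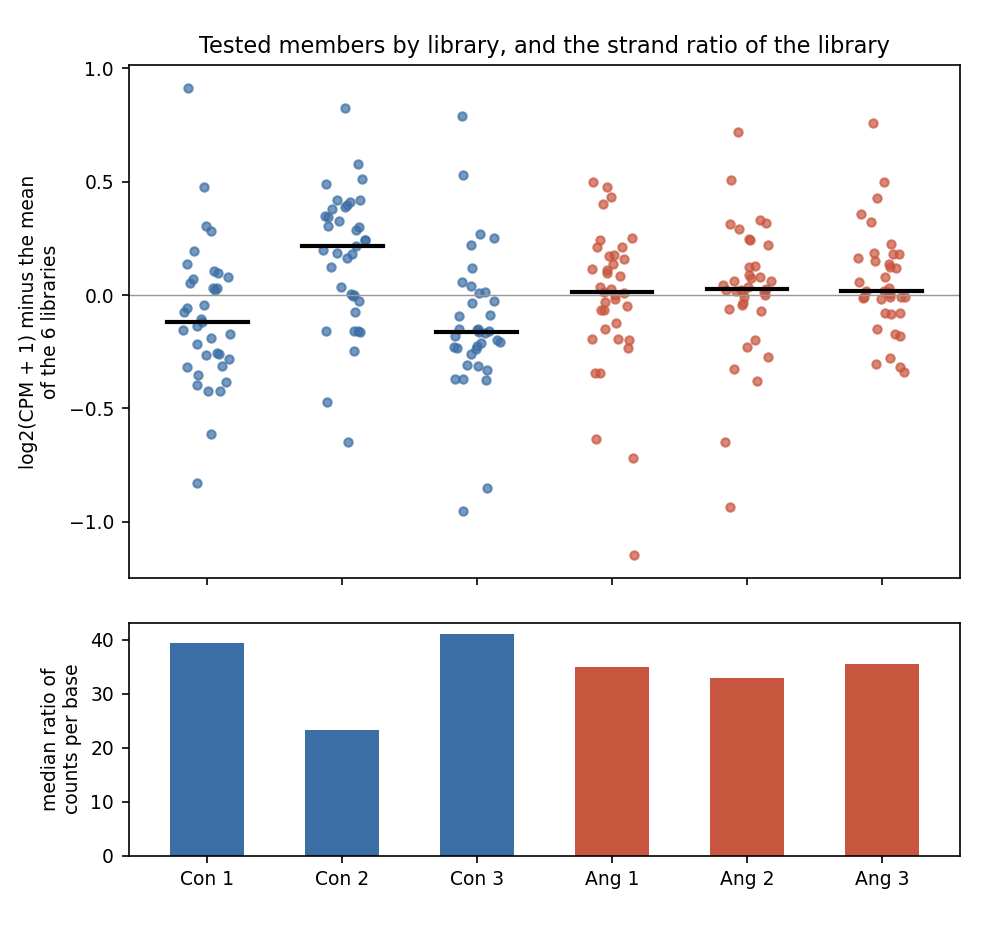
Upper panel: log2(CPM + 1) of each of the 37 tested members minus its mean over 6 libraries, by library, with the median as a bar. Lower panel: the strand ratio of each library (median over 250 pairs). The median of the members is highest, at 0.22, in Con replicate 2, where the ratio is lowest, at 23.2. The ratio is divided by counts of coding genes and so is not independent of these levels.

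Other genes of the pathway, on lists grouped by role, gave 0 calls, and 0 at an unadjusted p under 0.05 beside the 3.40% of all genes. Positive values on these lists stand beside 49.2% of all tested genes. Of the matrix ligands, 14 of 18 tested genes had positive values, with a median of 0.09. FN1, the fibronectin gene, averaged 312 ± 52.8 CPM (SD, n = 3) across Con against 377 ± 13.3 across Ang, and NID1, the nidogen-1 gene, 11.6 ± 1.63 and 17.4 ± 1.33 CPM (0.59 ± 0.33). Integrin activity regulators had 10 of 15 positive, with CIB1, a gene of an integrin-binding calcium protein, at 0.55 ± 0.34 and CD151, a tetraspanin partner of laminin-binding integrins, at 0.30 ± 0.21. Adaptors and actin linkers had 15 of 22 positive, with EVL, of the VASP family, at 0.69 ± 0.38.

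Focal adhesion signalling genes were positive in 20 of 30 cases, beside 49.2% of all tested genes, with a median of 0.10. SOS1, a Ras exchange factor gene, averaged 24.4 ± 1.78 CPM across Con against 33.5 ± 1.22 across Ang (0.46 ± 0.25), and PTK2B, the paralog of PTK2, had 0.64 ± 0.37. Genes of integrin endocytosis and recycling had 10 of 13 positive, with GGA3 at 0.41 ± 0.29 and EHD1 at 0.31 ± 0.25. Of the other integrin subunits 3 of 4 tested were positive, with ITGA2B, the platelet subunit, at 0.89 ± 0.75 from 69 counts in all and ITGAE at 0.17 ± 0.24. Without Con replicate 2 each of these lists again had 0 calls. The genes at an unadjusted p under 0.05, beside 11.0% of all genes in that fit, were 4 of 18 matrix ligands, 3 of 15 activity regulators, 8 of 22 adaptors and linkers, 5 of 30 signalling genes, 1 of 13 recycling genes and 0 of 4 other subunits. Positive values then numbered 13 of 18, 6 of 15, 19 of 22, 23 of 30, 9 of 13 and 2 of 4 in the same order, beside 49.6% of all genes.

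Of the genes named from these lists, PTK2B moved from 1.55-fold to 2.61-fold without that library (log2 1.38 ± 0.45, adjusted p = 0.154 by edgeR). CIB1 then had a log2 fold change of 1.0 ± 0.38, EHD1 of 0.71 ± 0.26, GGA3 of 0.61 ± 0.31 and CD151 of 0.57 ± 0.21. FN1 had 0.41 ± 0.11, with an adjusted p of 0.0806, and ITGAE was on the other side of 0, at -0.09 ± 0.23. NID1, EVL, SOS1 and ITGA2B had 0.65, 0.67, 0.44 and 0.92.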

How the data were processed

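The authors deposited raw counts of reads for each Ensembl ID, in 1 table a library. HTSeq 0.9.1, DESeq 1.39.0 and GRCh38 are named in the submitters' processing notes. No aligner, annotation release or strand setting is given in the sources used here. Per the labels' protocols, poly-T selected RNA was primed with random oligonucleotides, with no step named that marks the strand, and amplified by PCR. The limit of 3 counts covers counting error only, while intervals and SEs come from the fit and hold the spread between libraries.

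IDs were matched to symbols (28918 of 28979) and to GENCODE 29 (28192), and exon overlap came from bedtools 2.31.1. Strand pairs needed at least 90% of the exon bases of the non-coding gene under the coding gene and 300 counts in the latter, with 0.5 added to each count. Counts were filtered by filterByExpr, scaled by TMM and tested over all genes with edgeR 4.0.16 (robust quasi-likelihood, Benjamini-Hochberg threshold 0.05) in R 4.3.3, after a check on simulated counts. Fold changes are Ang minus Con, ± SE. DESeq2 1.42.0, limma 3.58.1 and the settings named in the closing section were alternatives.

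The members and lists were chosen with earlier results of these data known. Integrin subunits with over 3 counts in every library are given by library. So are the other members with an unadjusted p under 0.05, with groups that do not overlap, or among the 8 highest levels. Of each list, the 2 genes of smallest p are named, except 1 gene that is not reported here.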

Additional observations from a re-analysis of the deposited data

How the results depend on the processing

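Called members stayed at 0 with DESeq2's size factors (RLE), with every gene tested, with genes kept at 1 CPM or more in 3 libraries, with DESeq2, limma-voom, with each library left out, and with tests of only genes free of opposite-strand exon overlap. Called genes over all tested genes were 0 to 40 with a library left out, the 40 when Con replicate 2 was absent and 1 when Con replicate 1 was, and the cause was not tested. The median of the members was -0.021 to 0.125 over those fits and -0.054 among the 16 members free of overlap. Intervals within 2-fold numbered 14 of those 16, since fewer members were tested, and 26 to 30 in the other fits. Deviations from the group mean correlated at 0.0370, 0.0675 and 0.0356 between same-numbered libraries and at -0.0697 to 0.0302 between others. Every same-numbered value was above the others, and all were below the 0.1 used to treat numbers as pairs. With a replicate block 0 genes and 0 members were called, 3 members had an unadjusted p under 0.05, 29 intervals were within 2-fold and the median was 0.042. For single members, 418 values under alternatives had the same sign and no call, and 42 changed sign without a call. Levels per kilobase of the 16 integrin subunits were checked under RLE scaling, and with shared bases taken out of the exon length. They moved by less than the spread between libraries in 32 of 32 values. The other members were not part of that check, among them ILK with 78.5% of its exon bases under the other strand. The change of length removed no reads, so it cannot show what reads on shared bases add to the levels. Low subunits are limited by depth: ITGB8 had 2 to 19 counts a library.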
